A study of Mus musculus with 5 samples.

Results

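Calcium handling genes encode the proteins that raise and lower calcium in a heart muscle cell at each beat. In a cardiomyocyte, calcium enters through the L-type channel (Cacna1c) and opens the ryanodine receptor (Ryr2), which releases the calcium stored on calsequestrin in the sarcoplasmic reticulum. The pump SERCA2 (Atp2a2), restrained by phospholamban (Pln), returns calcium to the store, and the sodium-calcium exchanger (Slc8a1) removes it from the cell. The 10 genes described here were chosen by symbol: Ryr2, Casq1, Casq2, Trdn, Jph2, Atp2a2, Pln, Sln, Cacna1c and Slc8a1. All 10 were listed in the tables of 2 sections and 9 in those of the other 3, and 9 of the 10 were among the 13711 genes listed in all 5 tables.

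The study profiled heart sections from wild-type C57BL/6 mice with Visium spatial transcriptomics, a slide assay that reads messenger RNA spot by spot with barcoded oligonucleotides. Each animal had myocardial infarction (MI, ligation of the left anterior descending coronary artery) or sham surgery on postnatal day 1, and tissue was cut transversely 200 µm under the suture, or at a matched level where sham surgery left the artery untied. The 5 sections, 1 per animal, are called Sham D3, MI D3, Sham D7 and MI D7 replicates 1 and 2, with D for the day after surgery. A spot can hold several cells, so fewer cells of a type and less RNA per cell cannot be told apart.

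The 5 sections held 3364 spots, with medians of 20842.5 to 53940 raw UMIs per spot. MI D7 replicate 1 was the deepest and had the highest mitochondrial share, 24.7% against 13.8% to 15.8% in the others. Sham D3 and MI D7 replicate 1 carried Xist RNA (39.0 and 48.5 CPM), and the other 3 carried the Y-linked Ddx3y (31.6 to 35.6 CPM), so the animals differed in sex within the MI and within the sham sections. In the 3 MI sections, 21 spots had no chain of neighbouring spots to the main group of spots, and of the 1948 distinct barcodes 897 occurred in more than 1 section, since barcodes mark positions on a slide. All 8 ventricular cardiomyocyte markers were measured in every section, with Myl2 between 11420.5 and 14895.2 CPM.

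Casq2 encodes the cardiac form and Casq1 the form best known from fast skeletal muscle, and both bind calcium in the store. The promoters of Casq1, Casq2 and Slc8a1, the members whose difference at the tissue edge passed the test, are shown so that the 3 genes can be compared. In the GENCODE vM21 annotation of GRCm38 the genes span chr1:172209894-172219868 (Casq1), chr3:102086415-102146514 (Casq2) and chr17:81373105-81738377 (Slc8a1). Each sequence is the 250 bases before an annotated start (RefSeq, GRCm38.p6), read on the strand of the gene, and capitals mark the E-box letters CANNTG. The Casq1 window lies on the minus strand at chr1:172219896-172220145, Casq2 on the plus strand at chr3:102086165-102086414, and Slc8a1 on the minus strand at chr17:81738388-81738637.
Casq1: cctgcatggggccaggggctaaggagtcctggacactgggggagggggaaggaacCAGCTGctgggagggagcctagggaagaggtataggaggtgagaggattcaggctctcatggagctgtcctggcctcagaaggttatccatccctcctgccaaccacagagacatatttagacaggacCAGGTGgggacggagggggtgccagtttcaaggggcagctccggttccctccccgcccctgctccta
Casq2: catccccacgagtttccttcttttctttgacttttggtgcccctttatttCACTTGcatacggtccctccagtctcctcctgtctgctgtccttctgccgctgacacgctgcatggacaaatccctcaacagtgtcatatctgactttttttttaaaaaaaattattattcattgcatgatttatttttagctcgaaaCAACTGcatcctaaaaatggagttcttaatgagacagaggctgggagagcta
Slc8a1: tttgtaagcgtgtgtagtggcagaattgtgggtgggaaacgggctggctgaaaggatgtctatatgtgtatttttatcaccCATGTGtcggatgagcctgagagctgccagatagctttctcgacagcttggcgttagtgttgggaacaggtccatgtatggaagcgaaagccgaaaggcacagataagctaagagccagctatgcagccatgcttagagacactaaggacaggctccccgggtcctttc
The Casq1 window held 2 E-boxes, which began 195 and 67 bases before the start. Casq2 also held 2, at 200 and 52 bases, and Slc8a1 held 1, at 169 bases. GC content was 61.6% for Casq1, 41.6% for Casq2 and 50.4% for Slc8a1. Of 32841 promoters of the same length, 66.2% held an E-box, a site that reads the same on both strands. The letters TATAAA, on either strand, were found in 12.4% of all promoters and among the members in Pln alone. The MEF2 site was searched on both strands in a strict form only (CTA, then 4 letters A or T, then TAG), and the CArG box as CC, then 6 letters A or T, then GG. These forms matched 0.509% and 1.47% of all promoters and none of the 7 members that had an entry, and looser forms of the MEF2 site were not counted. Sln, Atp2a2 and Trdn had no entry.

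Sln, which encodes sarcolipin, a small inhibitor of the calcium pump known from atrial muscle, was close to undetected. The raw table of Sham D3 held 5 Sln UMIs in 5 of 544 spots, or 0.439 CPM (exact Poisson 95% interval 0.142 to 1.02, counting error only). In MI D7 replicate 1 the corrected counts summed to 9, in 9 of 693 spots and never above 1 in a spot. The other 3 tables, which list genes found in at least 5 spots, did not list it. No Sln patch could therefore be described at this depth. The values that follow are for the other 9 genes.

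The release genes other than Casq1 stayed within 1.37 times between sections. Levels are the mean over spots of CPM, the share of a spot's counts over the shared genes scaled to 1 common total, and they are not compared between genes, since CPM is not scaled by gene length. Ryr2 was at 364 CPM in Sham D3, 351 in MI D3, 336 in Sham D7 and 359.9 and 335 in the MI D7 replicates. Casq2 was at 669 CPM in Sham D3, 648 in MI D3, 598 in Sham D7 and 641 and 636 in the MI D7 replicates. The highest section was 1.09 times the lowest for Ryr2, 1.12 times for Casq2, 1.26 times for Trdn and 1.37 times for Jph2. Triadin (Trdn) anchors calsequestrin to the ryanodine receptor, and junctophilin 2 (Jph2) holds the store membrane next to the cell membrane. Trdn was at 177 CPM in Sham D3, 164 in MI D3, 188 in Sham D7 and 206 and 179 in the MI D7 replicates. Jph2 was at 178 CPM in Sham D3, 171 in MI D3, 235 in Sham D7 and 181 and 217 in the MI D7 replicates.

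Casq1 did not follow the other release genes. It was at 73.4 CPM in Sham D3, 63.7 in MI D3, 192 in Sham D7 and 26.1 and 66.6 in the MI D7 replicates. Sham D7 stood above the other 4, and the highest section was 7.37 times the lowest. In Sham D7, 4.90% of spots held no Casq1 count, against 23.7% to 33.8% elsewhere.

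The uptake genes showed no separation of MI from sham. Atp2a2 was at 4372 CPM in Sham D3, 3456 in MI D3, 5004 in Sham D7 and 5410.45 and 4352 in the MI D7 replicates. Pln was at 3433 CPM in Sham D3, 3176 in MI D3, 3258 in Sham D7 and 3390.4 and 2936 in the MI D7 replicates. MI D3 was the lowest section for Atp2a2 and the highest was 1.57 times it, while for Pln the highest was 1.17 times the lowest.

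The genes for calcium entry and removal across the cell membrane had their highest levels at day 3. Cacna1c was at 132 CPM in Sham D3, 138 in MI D3, 94.7 in Sham D7 and 102 and 89.2 in the MI D7 replicates. Slc8a1 was at 426 CPM in Sham D3, 476 in MI D3, 345 in Sham D7 and 252 and 311 in the MI D7 replicates. The day 3 and day 7 sections did not overlap for either gene, nor for Casq2, Trdn and Jph2, or for 44.7% of all genes.

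**Figure D1:**
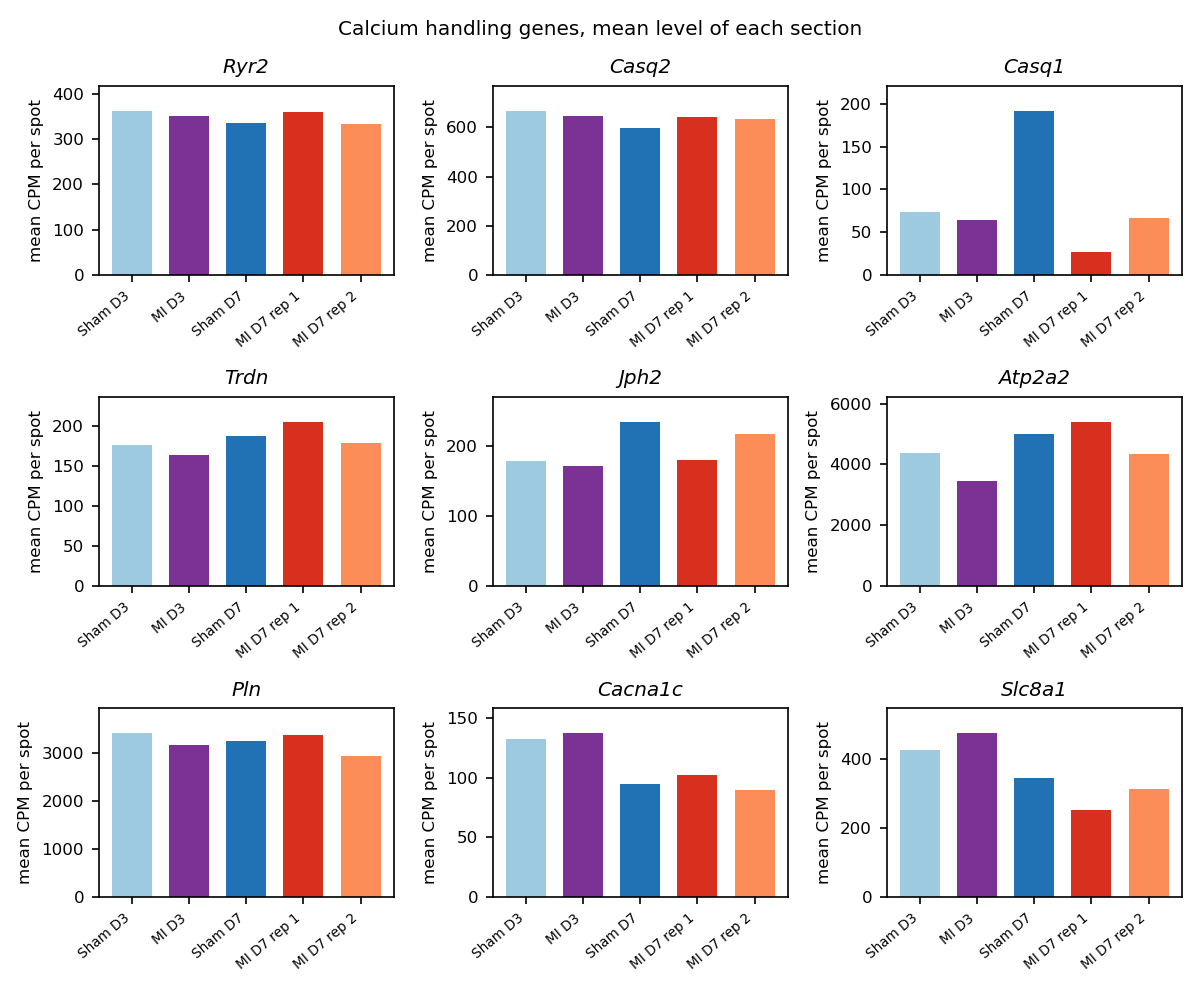
Mean CPM per spot of each section (vertical axis, from 0, a separate scale per gene) for the 9 calcium handling genes listed in all 5 tables, with 1 bar per section and no error bar since a section is 1 animal. The Casq1 bar of Sham D7 (192 CPM) stands above the other 4 (26.1 to 73.4 CPM), and the Cacna1c and Slc8a1 bars of day 3 stand above those of day 7.

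The first comparison was MI against sham with day as a covariate (limma on log2 of mean CPM + 1, two-sided, adjusted over 12933 genes). It called 0 of the 9 members, with 1 (Casq1) at an unadjusted p under 0.05, against a background of 0.00773% of all genes tested. Over all genes, limma called 1 gene higher and 0 lower, and 692 and 356 at an unadjusted p under 0.05. Casq1 had the largest difference among the members, -1.33 (SE 0.51, limma adjusted p = 0.58), and the other 8 lay between -0.17 (Atp2a2) and 0.03 (Casq2 and Cacna1c). Casq1 was the 1 member of 9 whose MI sections all lay below both sham sections, and MI and sham did not overlap for 16.4% of all genes. The Casq1 difference was -0.20 without Sham D7 and -0.86 without MI D7 replicate 1, neither of them called. Without Sham D3 or MI D3 the fit compares MI with sham at day 7 alone, and its value of -2.18, which passed, is that of the day 7 contrast described next. A fit that adds sex was chosen after seeing the data, had 1 residual degree of freedom and called Casq1 alone among the members, at -1.52 (SE 0.10, limma adjusted p = 0.000155), against 2.14% of all genes.

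At day 7, the contrast of the 2 MI sections with the sham section called Casq1 and none of the other 8 members (background 0.0464% of genes called lower). Sham D7 stood at 192 CPM and the MI D7 replicates at 46.3 ± 28.6 CPM (SD, n = 2), a difference of -2.18 on the log2(CPM + 1) scale (SE 0.35, limma adjusted p = 0.00984). Both MI sections were lower, at -1.52 for replicate 2 alone and -2.84 for replicate 1 alone. The other members lay between -0.30 (Slc8a1) and 0.09 (Casq2), with limma adjusted p of 1.00 each. The Casq1 call rests on 1 sham section, assumed to vary like the 2 MI sections (1 residual degree of freedom) with spread borrowed across genes, so surgery and this 1 animal cannot be told apart. The limma call was lost with median-of-ratios scaling at an adjusted p of 0.293, without mitochondrial and haemoglobin genes at 0.52 and without the off-tissue spots at 0.104, while the difference stayed between -2.17 and -2.10. At day 3, with 1 section each and no test, the log2 ratio of MI to sham was -0.20 for Casq1 and lay between -0.34 (Atp2a2) and 0.16 (Slc8a1) for the others.

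Between day 3 and day 7, with MI or sham as a covariate, limma called 0 of the 9 members, with 2 lower (Cacna1c and Slc8a1) at an unadjusted p under 0.05 (background 0.595% of all genes, 32 higher and 45 lower, with 431 and 2810 at an unadjusted p under 0.05). All genes together had a median of -0.18, and under median-of-ratios scaling at -0.01. Cacna1c was at -0.50 (SE 0.12, limma adjusted p = 0.10), or -0.32 relative to the median of all genes. Slc8a1 was at -0.57 (SE 0.16, limma adjusted p = 0.13), or -0.38 relative to that median. Jph2 at 0.29 and Atp2a2 at 0.36 had the highest values, both uncalled. Without MI D3, Slc8a1 was at -0.30 and Atp2a2 at 0.19. The sections of the 2 days did not overlap for 5 of the 9 members, beside 44.7% of all genes. In the fit with sex added, which called 17.6% of all genes, Cacna1c (-0.49, limma adjusted p = 0.0155) and Slc8a1 (-0.61, limma adjusted p = 0.00605) passed.

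Around these 9 genes, a wider list of 46 genes of calcium handling was read, of which 40 were in the shared set and 39 had levels high enough for the section fits. MI against sham called 0 of the 39 with limma, both across days and at day 7, where 4 and 2 of them had an unadjusted p under 0.05. Between the days 1 of the 39 passed, beside 0.595% of all genes. Strit1, which encodes DWORF, a small protein that activates the calcium pump, was at 8.63 and 5.79 CPM at day 3 and at 37.8, 22.3 and 22.9 CPM at day 7, so that every day 7 section was above both day 3 sections. It rose by 1.89 (SE 0.13, limma adjusted p = 0.00822). The median of the 39 was -0.15, close to the median of all genes. Other uptake genes, such as Ppp1r1a, a phosphatase inhibitor (-0.79, limma adjusted p = 0.0598), did not pass. Among the channel genes the lowest was Cacna1h, a T-type calcium channel (-1.60, limma adjusted p = 0.074), and the highest Cacna2d1 (0.20). Among release and triad genes the lowest was Fkbp1b, which binds the ryanodine receptor (-0.64, limma adjusted p = 0.158), and the highest Hrc, a calcium-binding protein of the store (0.59, limma adjusted p = 0.135). The highest of the uniporter genes was Smdt1 (0.30), uncalled. The store-operated genes ran from Stim1 (-0.40) to Itpr3 (0.08), the buffers from Calr (-0.41) to Calu (-0.28) and the extrusion genes from Atp2b4 (-0.28) to Slc8b1 (-0.09), none of them called.

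The study set out to locate its cardiomyocyte states in the tissue, among them CM4, its name for neonatal cardiomyocytes that enter the cell cycle after injury, and CM1, here the most frequent class. Each spot carries 11 deposited scores, estimates of its make-up, and it was called CM1-dominant or CM4-dominant by its highest score. There were 211 to 491 CM1-dominant and 40 to 86 CM4-dominant spots per section. The scores were made from the same expression values, so the differences below are descriptions with no test.

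Ryr2, Atp2a2, Pln and Cacna1c were lower in CM4-dominant than in CM1-dominant spots in all 5 sections, 4 of the 9 members against 2.17% of all genes. Atp2a2 was at 2090.45 CPM in CM4-dominant and 4243 in CM1-dominant spots of MI D3, a difference of -1.02 on the log2(CPM + 1) scale. In MI D7 replicate 2 it was at 3173 against 4870 CPM (-0.62), and in replicate 1 at 5026 against 5580 CPM (-0.15). Its sham values were 4157 against 4603 CPM in Sham D3 (-0.15) and 4552 against 5265 CPM in Sham D7 (-0.21). The difference was largest in MI D3, and that of MI D7 replicate 1, not set against other genes, lay between those of Sham D3 and Sham D7. Pln was at -0.74 in MI D3, -0.19 and -0.40 in the MI D7 replicates, -0.15 in Sham D3 and -0.23 in Sham D7. Ryr2 was at -0.62 in MI D3 and between -0.45 and -0.14 in the other 4, and Cacna1c at -0.79 and between -0.32 and -0.09. All 4 genes were also below the median difference of all genes of the same section, which ran from -0.10 to 0.20. Relative to that median Atp2a2 was at -1.20 in MI D3, -0.35 and -0.80 in the MI D7 replicates, -0.04 in Sham D3 and -0.12 in Sham D7. On this scale MI D7 replicate 1 lay below both sham sections. The relative values of the 4 genes in the sham sections were small, from -0.15 in Sham D3 to -0.0021 in Sham D7, both for Cacna1c.

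Casq1 and Casq2 had another pattern. Casq2 was lower in CM4-dominant spots of Sham D3 (-0.32) and Sham D7 (-0.13), and higher in those of MI D3 (0.47) and of the MI D7 replicates (0.19 and 0.07). Its CM4 level in MI D3 was 870 CPM against 628 in CM1-dominant spots. A pattern of this kind was shown by 15.8% of all genes, so it is not particular to Casq2, and relative to the median of all genes only the MI D3 value (0.30) stayed above 0. Casq1 was at 137 CPM in CM4-dominant and 41.5 in CM1-dominant spots of MI D3, a difference of 1.70, and in MI D7 replicate 1 at 36.4 against 20.2 CPM (0.82). In MI D7 replicate 2 it went the other way, with 49.2 against 67.9 CPM (-0.46), and in the sham sections it was at -0.43 and 0.09. Casq1 thus had the widest spread of the members, 0.35 ± 0.92 (SD, n = 5), and with 1 section left out its mean ran from 0.0074 (without MI D3) to 0.55 (without MI D7 replicate 2). Slc8a1 (-0.40 to 0.26), Trdn (-0.42 to 0.15) and Jph2 (-0.44 to 0.07) differed in sign between sections.

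**Figure D2:**
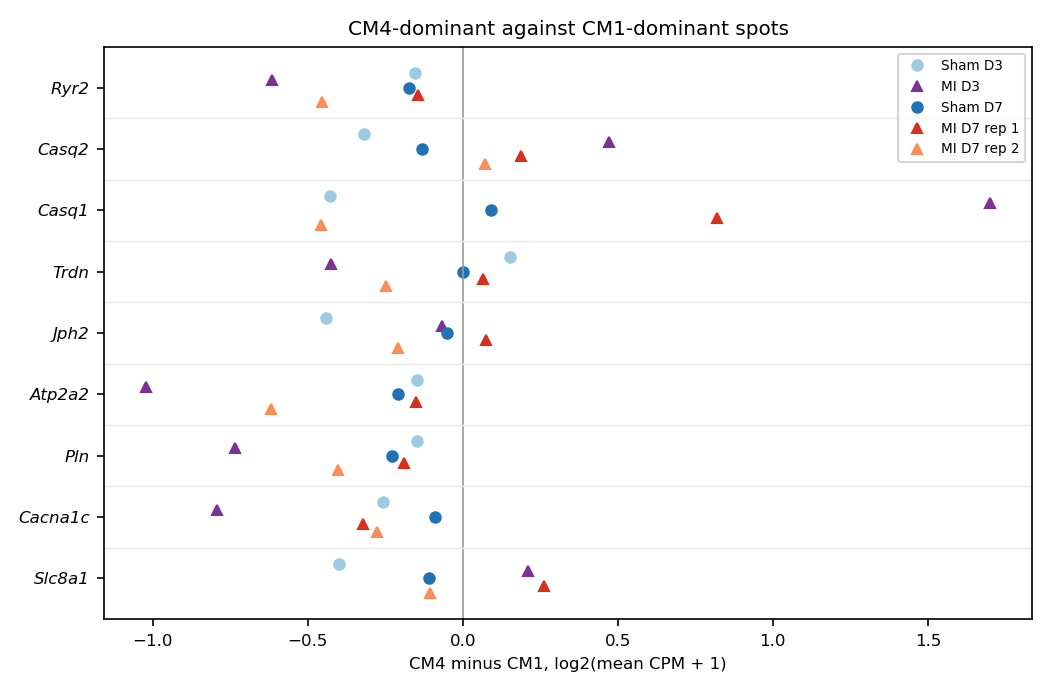
CM4-dominant minus CM1-dominant spots on the log2(mean CPM + 1) scale (horizontal axis) for each gene, with 1 point per section, circles for sham and triangles for MI. Ryr2, Atp2a2, Pln and Cacna1c lie left of 0 in all 5 sections, with MI D3 farthest to the left, while Casq1 runs from -0.46 to 1.70.

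Lists of cell type markers also differed between these spots. The 8 ventricular cardiomyocyte markers summed to 43563.5 to 49913.1 CPM in CM4-dominant and 48570.7 to 54530 in CM1-dominant spots, lower in all 5 sections. The 4 valve and fibroblast markers were higher in all 5 sections, at 1.35 to 2.50 times the CM1 level, and the 3 endocardial markers at 1.04 to 1.83 times. The atrial list, of which 8 of 9 genes were measured and Nppa made up most of the sum, was higher in 4 of 5 sections and at 0.64 to 9.44 times, lowest in Sham D3. The smooth muscle list (0.90 to 2.39 times) and the blood list (0.59 to 3.11 times) were each higher in 4 of 5 sections. The smooth muscle list includes Acta2, which the paper uses as a marker of CM4 cardiomyocytes. None of the measured markers of these lists was at 0 in a section. Their part in the differences was not tested.

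The gradient around CM4-dominant spots followed the same order for 3 genes. These were among the genes lower in CM4-dominant than in CM1-dominant spots in every section. The share of all genes with this order was not counted. CM1-dominant spots that touched a CM4-dominant spot (18 to 84 per section) lay between the CM4-dominant spots and the CM1-dominant spots beyond the second ring (132 to 335 per section) for Atp2a2, Pln and Ryr2 in all 5 sections. In MI D3 Atp2a2 was at 2090.45, 3490 and 4325 CPM in that order, and in MI D7 replicate 2 at 3173, 4178 and 5088 CPM. Casq1 ran the opposite way in MI D3, at 137, 62.6 and 39.7 CPM, and Casq2 at 870, 803 and 594 CPM. In Sham D3 Casq1 was instead lowest in and next to the CM4-dominant spots, at 49.0, 49.4 and 79.9 CPM.

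Across all spots of a section, Atp2a2 and Pln were the pair of members with the highest correlation, a mean Spearman's rho of 0.60 over the 5 sections (0.44 to 0.86). Their points share spots, depth and the total of each spot, so this is a description. Casq1 had means of -0.05 with Atp2a2 and -0.09 with Pln, but its sign differed between sections. With Atp2a2 it ran from -0.28 in MI D3 to 0.22 in MI D7 replicate 2, and with Pln from -0.31 to 0.16 in the same sections. With Casq2 and with Slc8a1 its mean was 0.16.

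Clustering in space was measured with Moran's I, which is near 0 where the values of neighbouring spots are unrelated and near 1 where they are alike. Atp2a2 was the most clustered member in all 5 sections, at 0.281 in Sham D3, 0.316 in Sham D7, 0.820 in MI D3 and 0.475 and 0.708 in the MI D7 replicates. Pln was at 0.210 in Sham D3, 0.249 in Sham D7, 0.744 in MI D3 and 0.466 and 0.619 in the MI D7 replicates. For both genes every MI section was above both sham sections. For 8 of the 9 members Moran's I was higher in every MI than in every sham section, against 22.0% of all genes. It was 6 of 9 over the second ring of neighbours, without Trdn and Jph2, and 6 of 9 on the CPM scale, without Casq2 and Jph2. Depth differed too, with medians of 20842.5 UMIs per spot in Sham D3, 22934 in Sham D7, 34837.5 in MI D3 and 53940 and 20904 in the MI D7 replicates, and its part in Moran's I was not tested.

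Casq1 was the exception, with overlapping values. Its Moran's I was 0.0884 in Sham D3, 0.198 in Sham D7, 0.234 in MI D3 and 0.101 and 0.201 in the MI D7 replicates. It was none the less among the most clustered genes of every section, at percentiles of 94.6 to 99.4 among all genes. The 10% of spots with the highest smoothed Casq1 value held 18.8% to 30.7% of its summed level, against 15.0% at most for Casq2 and 15.9% at most for Atp2a2. These spots are chosen by the gene's own value, and counting noise raises the share of a gene with few counts. Casq1 summed to 832 counts over the 544 spots of Sham D3, where Casq2 summed to 7609, so the shares are not compared further.

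**Figure D3:**
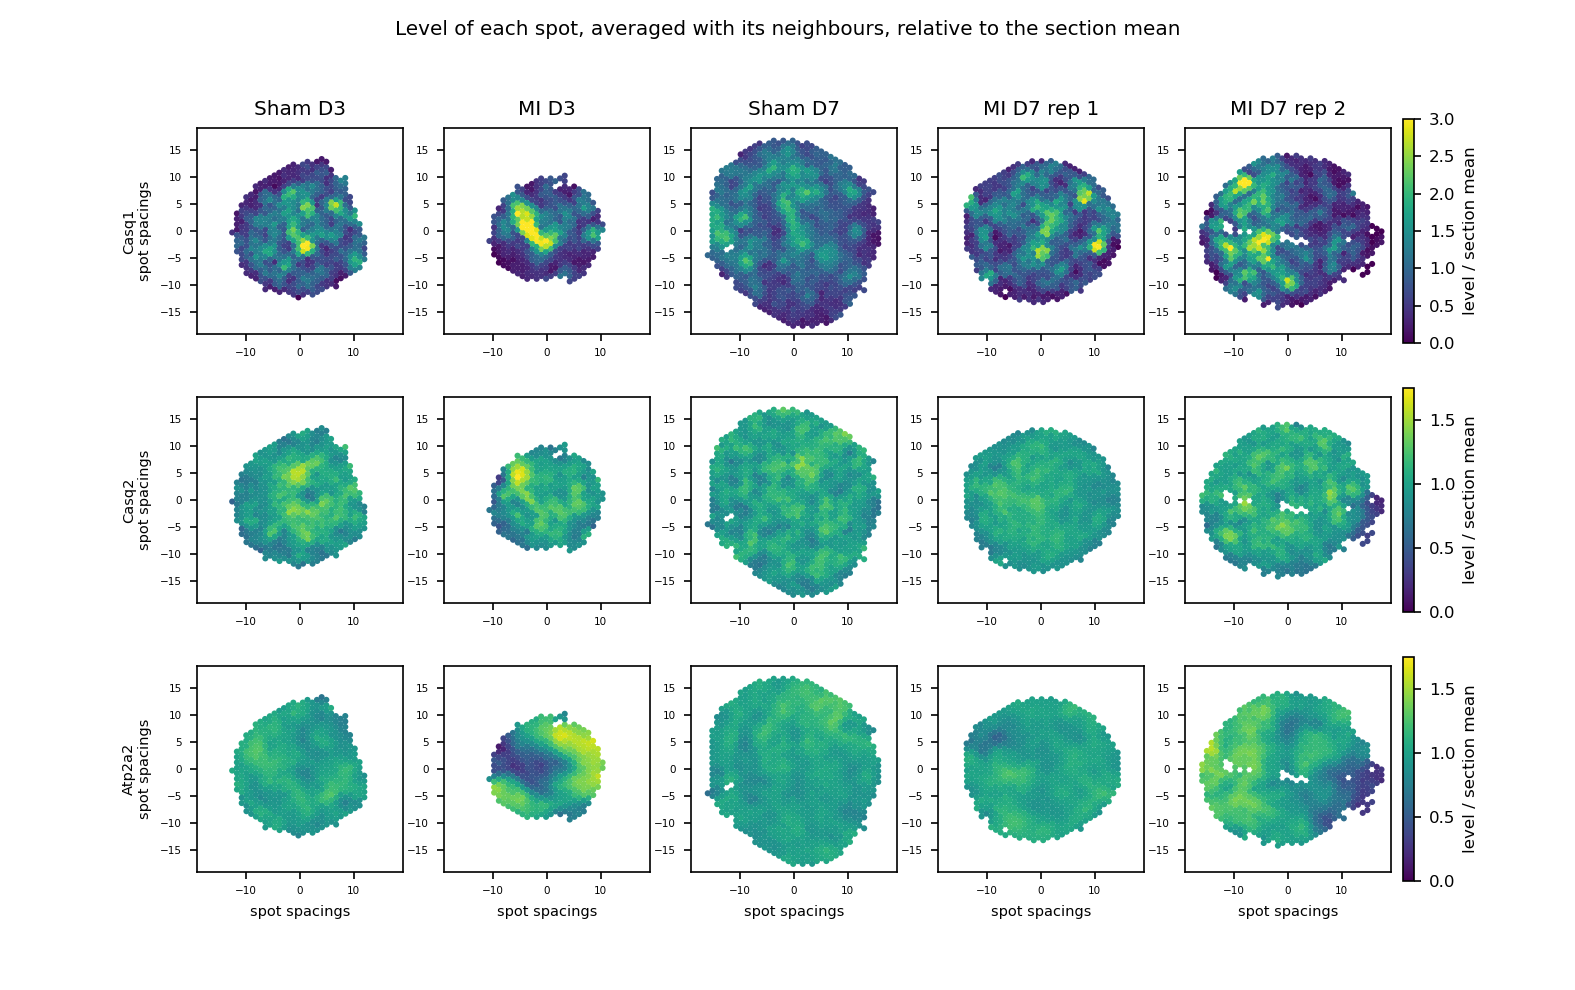
Level of Casq1, Casq2 and Atp2a2 in each spot, averaged with its neighbours and divided by the section mean (colour, with a wider scale for Casq1), with positions in spot spacings from the centre of the section and off-tissue spots left out. Casq1 forms patches inside the tissue with a low rim, Casq2 is highest in 1 area of MI D3 and near the centre of Sham D3, and Atp2a2 is even in the sham sections and low in a coherent area of MI D3 and of MI D7 replicate 2.

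Patches of Casq1 were taken as the 5% of spots highest after averaging with neighbours, so their Casq1 level is fixed by the choice. In MI D3 18 of the 19 patch spots were connected, at 217 CPM of Casq1 against 55.5 elsewhere. In the sham sections the largest connected patch held 14 of 28 spots at day 3 and 15 of 48 at day 7, and in the MI D7 replicates 10 of 35 and 19 of 40. Edge spots, at the rim of the tissue, made up 0% to 8.33% of the patches and 12.9% to 24.1% of the other spots. FB-dominant spots, whose highest score was that for fibroblasts, made up 15.0% to 64.6% of the patches against 4.48% to 25.8% elsewhere, higher in all 5 sections. CM4-dominant spots made up 21.1% of the patch and 10.1% of the other spots in MI D3, and 14.3% and 10.8% in MI D7 replicate 1. In the other 3 sections they made up 0% to 2.08% of the patches and 6.25% to 11.5% of the other spots.

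Inside the patches the other members had medians over the 5 sections of 0.86 (Ryr2) to 1.12 (Slc8a1) times their level elsewhere. Casq2 was at 1.03 to 1.36 times, above 1 in all 5 sections. The MI D3 patch stood apart, with Atp2a2 at 1741 CPM inside against 3547 outside (0.49 times) and Pln at 0.61 times. Ryr2 was at 0.61, Cacna1c at 0.65, Jph2 at 0.78, Trdn at 0.89 and Slc8a1 at 0.90 times there. In MI D7 replicate 2 Atp2a2 was instead higher inside, at 4973.5 against 4319 CPM, and Ryr2 was at 1.19 times. The skeletal muscle list, of which 8 of 15 genes were in the shared set, summed to 0.84 to 0.96 times the level elsewhere, lower in all 5 sections. Ckm, a creatine kinase gene that heart muscle also expresses, made up most of this sum, and Ryr1, Atp2a1, Myog and Myh4 were not among the shared genes. Of the 8 genes, 3 were higher inside in Sham D3, 4 in MI D3 and 5 in Sham D7. The conduction list (10 of 12 genes measured) was at 1.05 to 1.42 times and the smooth muscle list (6 of 6) at 1.05 to 1.47 times, both higher in all 5 sections. By section level, Kcne1 (266 to 441 CPM) made up most of the conduction list. Des, Acta2 and Myl9 made up most of the smooth muscle list, and Myl9 is also among the genes most like Casq1 named below. The atrial list was at 0.33 to 4.61 times and the valve and fibroblast list at 0.78 to 1.61 times, each higher in 4 of 5. The endocardial list was at 0.60 to 3.24 times, higher in 4 of 5, and the blood list at 0.52 to 1.01 times, higher in 1 of 5. The ventricular list was at 0.80 to 1.07 times, higher in 1 of 5. Their part in the Casq1 pattern was not tested.

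The genes most like Casq1 were ranked by the mean over the 5 sections of Spearman's rho across spots, among 9511 genes. Ankrd1, a stress-responsive gene of heart muscle, came first at 0.28 (0.17 to 0.44). Fuca2 (0.23), Nppa (0.22), Myl9 (0.22), Postn (0.21), Fstl1 (0.21), Sparc (0.19), Atp1b1 (0.19), Fn1 (0.18) and S100a6 (0.18) followed. Nppa encodes atrial natriuretic peptide, and Postn, Sparc and Fn1 encode matrix proteins. These values are weak, and Nppa and Fn1 were below 0 in MI D7 replicate 2.

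**Figure D4:**
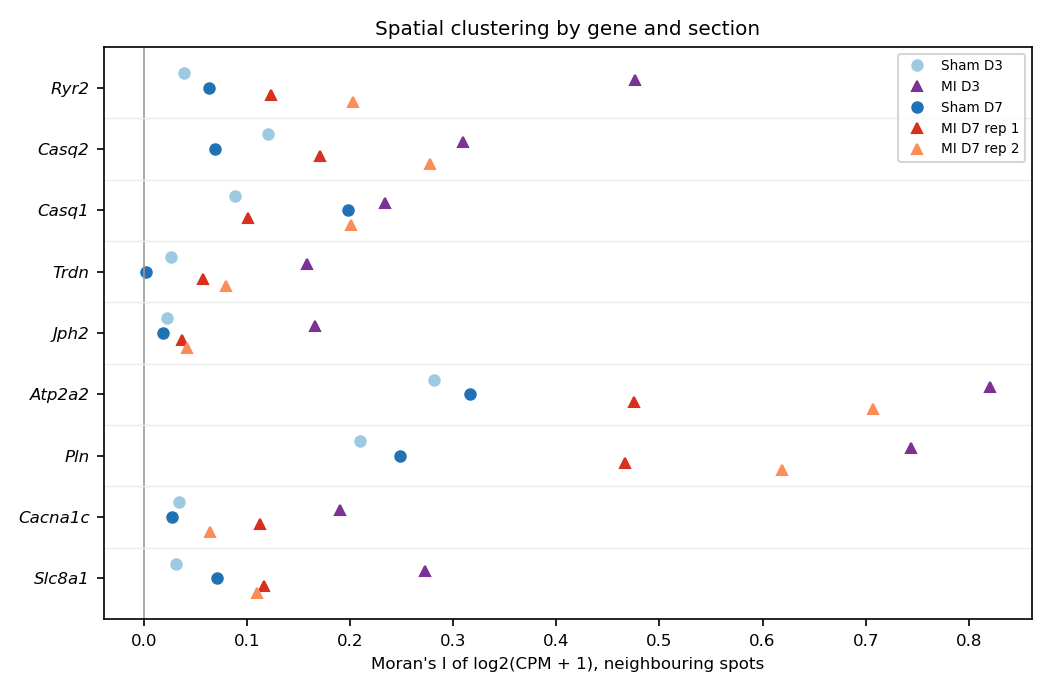
Moran's I of log2(CPM + 1) over neighbouring spots (horizontal axis) for each gene, with 1 point per section, circles for sham and triangles for MI. The triangles lie to the right of the circles for all genes but Casq1, with Atp2a2 at 0.475 to 0.820 in the MI sections and 0.281 to 0.316 in the sham sections.

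Position was tested apart from the scores, as edge spots (fewer than 6 neighbours, 86 to 163 per section) against interior spots of the same section. Edge spots line the outside of the section and any gap in it. Casq1, Casq2, Slc8a1, Ryr2 and Atp2a2 were lower at the edge in all 5 sections, and the share of all genes that were was not counted. Casq1, Casq2 and Slc8a1, 3 of the 9 members, passed, against 4.05% of all genes called lower. None of the members was called higher, against 0.736% of all genes, and none of the 9 had an unadjusted p under 0.05 for a higher value. The median of all genes was at -0.13, and Ryr2 and Atp2a2 lay above it, by 0.05 and 0.06.

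Casq1 had the largest fall. It was at 42.8 CPM at the edge and 79.2 in the interior of Sham D3, 40.4 and 70.6 in MI D3, and 141 and 199.83 in Sham D7. In MI D7 replicate 1 it was at 15.3 and 28.0 CPM and in replicate 2 at 37.9 and 74.0 CPM. The edge was thus at 0.51 to 0.71 times the interior, although the sections themselves differed several-fold. The fit had 4 residual degrees of freedom, with spread borrowed across genes. The fitted difference was -0.79 (SE 0.07, limma adjusted p = 5.16e-07), or -0.66 relative to the median of all genes. Within CM1-dominant spots only, added after seeing the data, it was -0.55 (limma adjusted p = 0.00235).

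Slc8a1 and Casq2 fell less. Slc8a1 was at 199 to 428 CPM at the edge and 261 to 489.9 in the interior, at 0.76 to 0.87 times. Its difference was -0.29 (SE 0.05, limma adjusted p = 0.00093), or -0.16 relative to the median, and it was -0.19 without mitochondrial and haemoglobin genes (limma adjusted p = 0.0122). Casq2 was at 535 to 572 CPM at the edge and 602 to 687 in the interior, at 0.79 to 0.95 times. Its difference was -0.24 (SE 0.05, limma adjusted p = 0.00487), or -0.11 relative to the median. The Casq2 call was lost without mitochondrial and haemoglobin genes (-0.14, limma adjusted p = 0.0863) and within CM1-dominant spots (-0.13, limma adjusted p = 0.0942). The other 6 members lay between -0.08 (Ryr2) and 0.05 (Cacna1c), with limma adjusted p of 0.305 to 0.783, and all 6 were above the median of all genes. Without the 21 off-tissue spots, all of them edge spots, Casq1 was at -0.80, Slc8a1 at -0.29 and Casq2 at -0.24, and all 3 passed.

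**Figure D5:**
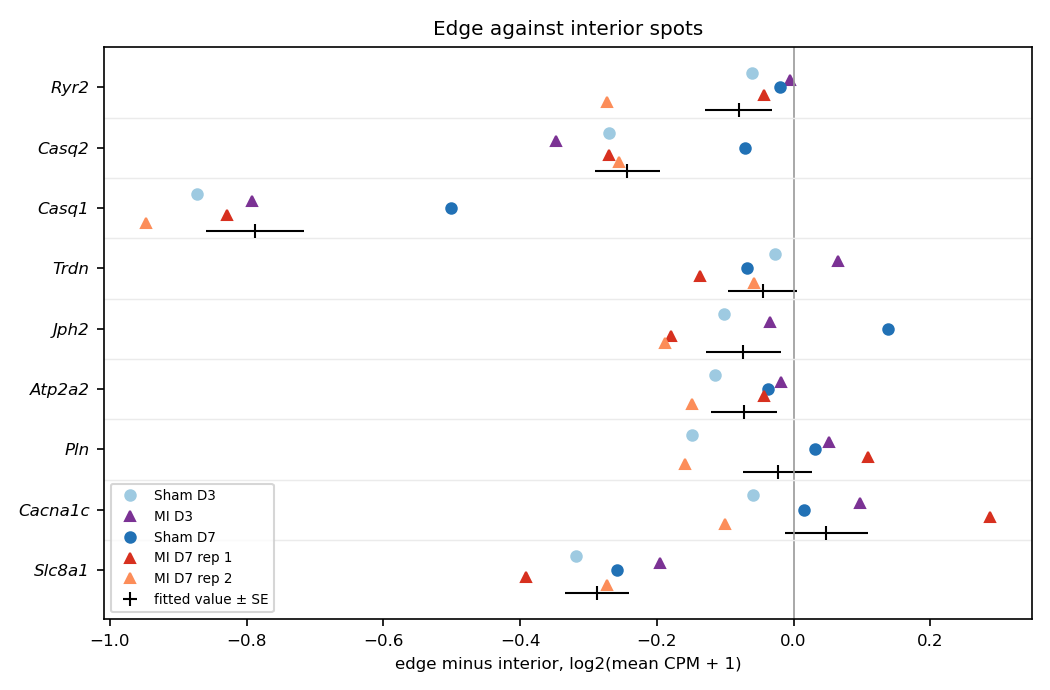
Edge minus interior spots on the log2(mean CPM + 1) scale (horizontal axis) for each gene, with 1 point per section, circles for sham and triangles for MI, and the fitted value ± SE of limma in black (5 sections). Casq1 lies between -0.95 and -0.50, Casq2 and Slc8a1 lie left of 0 in all 5 sections, and the fitted values of the other genes lie between -0.08 and 0.05.

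Counted inward from the rim, Casq1 was lowest in the outermost ring of spots in all 5 sections. In MI D7 replicate 2 it was at 37.9 CPM at the rim, 64.8 in the next ring and 81.4 in the third. In Sham D3 it was 42.8, 48.3 and 72.0 CPM, and 93.4 CPM from the fifth ring inward. Casq2 and Slc8a1 were also higher from the fifth ring inward than at the rim in all 5 sections, Casq2 at 752 against 570 CPM and Slc8a1 at 471 against 352 CPM in Sham D3. Atp2a2 differed, with 2709.7 CPM from the fifth ring inward against 3422 at the rim in MI D3, where its low area lay inside the tissue.

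Marker lists also differed between edge and interior. The 3 blood genes summed to 1.37 to 2.91 times the interior level at the edge, higher in all 5 sections. The atrial list was at 0.35 to 0.78 times and the conduction list at 0.59 to 0.91 times, lower in all 5 sections, and the ventricular list at 0.87 to 1.02 times. The endocardial list was at 0.58 to 1.61 times and the smooth muscle list at 0.74 to 1.05 times, each lower in 4 of 5 sections. Edge spots of MI D3 had a median of 25683 UMIs against 35689.5 in the interior, and in the other 4 sections the 2 medians were closer. Their part in the falls of Casq1, Casq2 and Slc8a1 was not tested. Of the 40 genes of the wider list, limma called 4 lower at the edge (4.05% of all genes were) and 0 higher, with a median of -0.14 near that of all genes. They were Cacna1h (-0.85, limma adjusted p = 0.0136), Fkbp1a, a partner of the ryanodine receptor (-0.18, limma adjusted p = 0.0299), Asph, which includes junctin (-0.23, limma adjusted p = 0.0153), and Srl, which encodes sarcalumenin, a calcium-binding protein of the store (-0.17, limma adjusted p = 0.0457). Each of these 4 calls was lost in at least 1 leave-out of a section. Without mitochondrial and haemoglobin genes Fkbp1a (-0.082), Asph (-0.13) and Srl (-0.061) did not pass, with limma adjusted p of 0.392, 0.184 and 0.56.

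By spot class the wider list held further values, again with no test. Speg, a kinase of the junction, was lower in CM4-dominant spots in all 5 sections (-0.42 to -0.09), 1 of 40 genes beside 2.17% of all genes. Atp2b4, a calcium pump of the cell membrane (0.20 to 0.62), Micu2, which gates the mitochondrial uniporter (0.08 to 0.47), and Calr, a calcium buffer of the endoplasmic reticulum (0.04 to 0.36), were among the genes higher in all 5, as were 8.83% of all genes. Casq1 was higher than its section mean in FB-dominant spots of all 5 sections, at 1.09 to 1.51 times, and in EndoEC-dominant spots of all 5, at 1.01 to 1.56 times.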

How the data were processed

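Visium spots of 5 heart sections were read from the expression and metadata tables that the authors deposited. The authors aligned reads to mouse GRCm38 (mm10) with Space Ranger, per the labels, and processed spots with sctransform. The deposited Sham D3 table held raw UMI counts. In the other 4, deposited values were counts after sctransform correction and are treated as a score: each spot summed to the corrected total given for it in the metadata. The deposited metadata also gave 11 cell type scores, which the authors transferred from single-nucleus data as a fraction from 0 to 1, and spot positions in pixels.

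Spots were scaled to CPM over the 13711 shared genes, which held over 99.8% of each table, and averaged per section, so that the section was the replicate. P-values rest on the spread between these few sections together with spread borrowed across genes. The borrowed part had more degrees of freedom than the sections gave. It had 4.91 beside 2 in the fits across and between days, 16.5 beside 1 at day 7 and 17.7 beside 4 at the edge. The model was limma 3.58.1 (R 4.3.3) with a trend, run on log2 section means after adding 1, which understates changes of low genes. Genes needed 1 CPM in 2 or more columns. Two-sided p-values were adjusted by Benjamini-Hochberg over all genes (threshold 0.05). Neighbours lay within 1.25 spot spacings (second ring to 2.25). Likeness used genes of 5 CPM or more in every section. The procedure was tested on simulated data.

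Members, gene lists and rules were chosen with earlier results of these data known. The text names all 10 members, genes of the wider list that passed a test, the extremes of each role between days, and the 10 genes most like Casq1. Speg, Atp2b4, Micu2 and Calr were named after their values were seen, and 1 gene of the wider list is not reported here. Alternatives were other scaling, pseudocounts of 0.1 and 5, no filter, a ratio of sums, Sham D3 rebuilt with sctransform 0.4.2, CM1-dominant spots only, other edge and score rules, and each section left out. Adding sex, leaving out off-tissue spots and testing the edge in CM1-dominant spots were added after seeing the data.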

Additional observations from a re-analysis of the deposited data

Results flagged for a closer look

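The CM4 minus CM1 difference of Casq2 was below 0 in Sham D3 and Sham D7 (-0.32 and -0.13) and above 0 in MI D3 and the MI D7 replicates (0.47, 0.19 and 0.07), a gap of 0.467 between the mean of the MI and the mean of the sham sections on the log2(CPM + 1) scale. Every sham section moved one way and every MI section the opposite way, and the difference was not tested. This direction was also shown by 15.8% of all genes. The median of all genes had the same signs, at -0.10 and -0.09 in Sham D3 and Sham D7, 0.17 in MI D3 and 0.20 and 0.18 in the MI D7 replicates. Casq2 held its signs with a score of at least 0.5, with a ratio of sums, with a pseudocount of 5 and without the off-tissue spots.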

How the results depend on the processing

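Adding sex gave 1 member called across days (Casq1) and 2 between days (Cacna1c and Slc8a1). At day 7 the call of Casq1 was lost, with 0 members called, under median-of-ratios scaling (-2.14), without mitochondrial and haemoglobin genes (-2.10) and without off-tissue spots (-2.17). At the edge Casq2 passed no longer at -0.14 without mitochondrial and haemoglobin genes and at -0.13 in CM1-dominant spots only, so that 2 members were called there in place of 3. Of the genes most like Casq1, 6 were shared under Pearson's r. The cause was not tested. With a section left out, 0 to 1 members were called across days (1 without Sham D3 or MI D3), 1 at day 7 only where both MI sections stayed, and 3 at the edge.

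Some values that passed no test changed sign. In median-of-ratios scaling Ryr2 was at -0.014 across days, and between days Casq2, Ryr2 and Pln were at 0.11, 0.13 and 0.15. Without mitochondrial and haemoglobin genes Trdn was at 0.019 across days and Pln at 0.018 between days, Atp2a2 and Pln at 0.050 and 0.048 at day 7, and Ryr2, Atp2a2, Pln, Trdn and Jph2 at 0.016, 0.029, 0.077, 0.059 and 0.023 at the edge. In CM1-dominant spots Casq2, Pln and Trdn were at -0.028, 0.013 and 0.029 across days. Leaving out a section ranged across days from -0.046 to 0.094 for Casq2, -0.049 to 0.049 for Ryr2, -0.012 to 0.086 for Cacna1c, -0.30 to 0.16 for Slc8a1 and -0.11 to 0.033 for Trdn. It ranged between days from -0.60 to 1.38 for Casq1 and -0.095 to 0.0093 for Pln, and at the edge from -0.056 to 0.011 for Pln and -0.012 to 0.085 for Cacna1c. At day 7, where this leaves no test, Ryr2, Cacna1c and Trdn were at -0.0031, -0.084 and -0.066 without MI D7 replicate 1, and Atp2a2 and Pln at 0.11 and 0.057 without replicate 2. The mean CM4 minus CM1 difference was -0.048 for Casq2 without MI D3 and 0.064 for Slc8a1 without Sham D3.

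Counts of genes called depended on the setting, from 32 to 2280 between days (77 as reported, 32 without MI D7 replicate 2, 2280 with sex added) and from 132 to 901 at the edge (637 as reported, 132 without MI D7 replicate 1). At day 7 the count ran from 0 (without mitochondrial and haemoglobin genes) to 87 with a ratio of sums, with 30 as reported. Across days it ran from 0 to 366, the latter without Sham D7, with 1 as reported. The 1 or 2 sections per group limit every comparison.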
